A study of Mus musculus with 4 samples.

Results

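The peaks here are Sp9 binding sites in embryonic mouse basal ganglia whose nearest listed transcription start site (TSS) was more than 500 kb away. The distance counts only the genes that the lists assign, so other gene starts can lie closer. There were 270 such peaks among the 6022 listed at embryonic day 16.5 (E16.5) and 404 among the 5847 listed at embryonic day 13.5 (E13.5), or 674 of 11869 over both lists. They were chosen by the absolute TSS distance given in the peak lists. The lists come from ChIP-seq, the sequencing of DNA co-precipitated with a protein from cross-linked and sheared chromatin, here with a rabbit antibody to Sp9 on microdissected basal ganglia of wild-type embryos of the CD1 strain. Each stage had 1 Sp9 ChIP library, against which 1 input library made without antibody served the authors' peak calling. Nothing was replicated, so each p-value compares peaks within these lists and says nothing of the stages. The lists give, on the mouse mm9 build, the signed distance in base pairs (bp) of each numbered peak from the TSS of up to a few assigned genes. Coordinates, peak heights and read totals are not part of them, so the sequencing depth was unknown and no peak sequence could be read.

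Sp9 belongs to the SP/KLF group of zinc finger proteins, which bind GC-rich DNA, and young neurons of the striatum and their precursors in the ganglionic eminences make it. Developmental regulators and genes for neuronal adhesion often sit in wide gene-poor stretches of the genome, sometimes called gene deserts, and such stretches can hold enhancers that act over long distances. Being the nearest gene, or a gene assigned to a peak, is a statement of position and does not show that the gene is regulated from that site.

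The distance was the value that chose these peaks, so their number and spacing are given as a description. They made up 4.48% of the E16.5 list (95% Wilson interval 3.99 to 5.04) and 6.91% of the E13.5 list (6.29 to 7.59). These intervals, and those that follow, reflect counting error alone. The median nearest distance was 650 kb in the E16.5 list and 651 kb in the E13.5 list, and the farthest peaks lay 988 kb and 997 kb away. The authors' assignment reached at most 1000000 bp from a TSS, which set this upper end. Numbers thinned with distance: 52 E16.5 peaks and 77 E13.5 peaks lay between 500 and 550 kb, and 11 and 19 between 950 and 1000 kb.

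**Figure D1:**
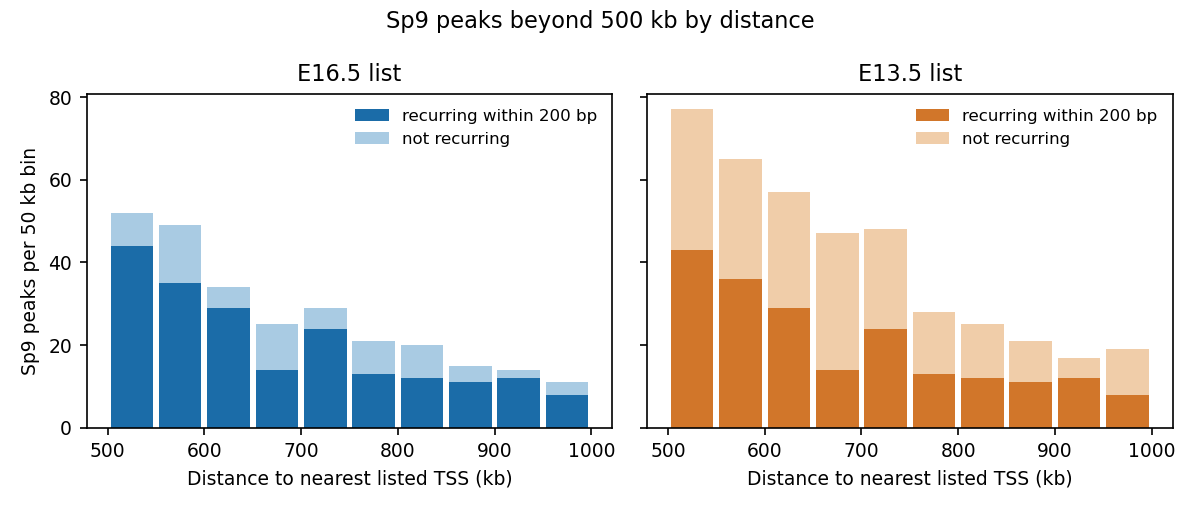
Number of Sp9 peaks beyond 500 kb per 50 kb bin of distance to the nearest listed TSS (horizontal axis, kb), for the E16.5 list (left) and the E13.5 list (right); dark bars are peaks with a peak of the other list within 200 bp and pale bars those without. Both lists thin out with distance, and the pale part is larger at E13.5 (202 peaks in all) than at E16.5 (68 peaks).

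At the threshold itself, the first E16.5 peaks inside lay 501743 bp from Dpyd, 502451 bp from Dab2 and 505165 bp from Plxna2, and the last peaks outside lay 498245 bp from Psmd7, 495485 bp from Prmt6 and 495419 bp from Zfp608. In the E13.5 list the first inside lay 500544 bp from Nyap2, 501652 bp from Dpyd and 502369 bp from Dab2, and the last outside lay 499501 bp from Fam92a, 498406 bp from Gatsl2 and 495520 bp from Zfp608. The Zfp608 pair just outside belonged to the same upstream row of peaks as several of those inside.

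Most pairs of flanking genes that could be placed had no protein-coding gene between them but did have genes of other kinds. Of the peaks beyond 500 kb, 103 at E16.5 and 150 at E13.5 were assigned to 2 genes, and the TSS-to-TSS span around them, the sum of both distances, had a median of 1339830 bp at E16.5 and 1391392 bp at E13.5. The widest span was 1968822 bp in both lists. Of the 69 gene pairs that flanked such peaks at E16.5, 64 could be placed in the RefSeq gene table of assembly GRCm38.p6, and 60 of those had no protein-coding gene between them. At E13.5, 80 of 88 pairs could be placed and 74 had none. Only 3 pairs in each list had no gene of any type between them, and the median number was 7 in both lists. An assignment to the genes beside a peak itself favours pairs with no gene between them. Pairs around nearer peaks were not counted, so these numbers do not set the far peaks apart. The remaining 167 peaks at E16.5 (61.9%, 55.9 to 67.4) and 254 at E13.5 (62.9%, 58.1 to 67.4) were assigned to 1 gene, which means that no other regulatory domain reached them. Among peaks 50 to 500 kb from a TSS the share assigned to 1 gene was 17.2% at E16.5 and 17.7% at E13.5, a contrast that the distance rule and the 1000000 bp limit of the assignment build in. A peak far downstream of a TSS can still lie inside a long gene, and this was not tested, since the lists give no gene ends.

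Peaks without an assigned gene lie outside this count, and some of them may sit in the widest deserts. Of the 6130 peak numbers at E16.5, 108 were assigned to no listed gene, and of the 5982 at E13.5, 135. Peak numbers follow genome order: among genes with 3 or more peaks the distances ran in one direction with the number in 935 of 937 genes at E16.5 and in 1082 of 1084 at E13.5. The next assigned number on at least 1 side was a peak beyond 500 kb for 54 of the 108 unassigned numbers at E16.5 (50%, 40.7 to 59.3) and for 106 of the 135 at E13.5 (78.5%, 70.9 to 84.6). For 19 and 46 of them it was so on both sides. The share of assigned numbers with such a neighbour was not computed. Unassigned numbers have no distance, so their positions are unknown and they were not counted.

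A peak was called recurring when the other list held a peak of the same gene whose distance differed by at most 200 bp. Of the peaks beyond 500 kb, 202 of 270 at E16.5 recurred (74.8%, 69.3 to 79.6) and 202 of 404 at E13.5 (50%, 45.1 to 54.9). Over all listed peaks the recurring share was 56.2% at E16.5 and 57.9% at E13.5. The 202 peaks formed the same 202 mutual pairs seen from either list, all beyond 500 kb in both, so both shares rest on 1 set of sites and differ through the number of peaks that each list holds. In every pair the assigned genes were the same at both stages. The median difference in distance within a pair was 33 bp, against 36 bp for recurring peaks 50 to 500 kb from a TSS.

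At E16.5, peaks beyond 500 kb recurred more often than all nearer peaks, 74.8% against 55.3% (odds ratio 2.40, 95% interval 1.81 to 3.22; Fisher's exact test, two-sided, adjusted p = 7.96e-10). Against peaks 50 to 500 kb away, of which 70.5% recurred, the difference was 4.33 percentage points and did not pass the test (odds ratio 1.24, 0.926 to 1.69; adjusted Fisher's exact p = 0.314). The recurring share of the E16.5 list was 33.3% within 1 kb of a TSS, 44.8% at 1 to 5 kb and 62.9% at 5 to 50 kb, so the gap to all nearer peaks came with a low share close to the TSS. Within 1 kb the E16.5 list held 1888 peaks and the E13.5 list 993, which by itself limits the share that could recur there. With 1 partner each inside the class, at most 100% of far peaks and 94.6% of all nearer peaks could recur. Fisher's exact test takes no account of such limits. The difference from all nearer peaks therefore cannot be told apart from the relative lengths of the lists in each class. Neighbouring peaks are not independent, which makes tests over all peaks look more precise than they are.

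At E13.5 the shares stood in the other order, at 50% beyond 500 kb, 57.2% at 50 to 500 kb and 58.4% over all nearer peaks. List size bounds these shares. All far pairs were mutual and lay beyond 500 kb in both lists, and the E16.5 list holds 270 such peaks, so with 1 partner each at most 66.8% of the 404 E13.5 peaks could recur. Counted in the same way within the class, the ceiling was 81.2% at 50 to 500 kb, with 2355 E16.5 peaks for 2899 at E13.5, and 100% for all nearer peaks. Fisher's exact test takes no account of these ceilings. Its values were an odds ratio of 0.749 against peaks 50 to 500 kb away (0.604 to 0.927; adjusted Fisher's exact p = 0.0197) and 0.711 against all nearer peaks (0.578 to 0.875; adjusted Fisher's exact p = 0.00398). They cannot be told apart from the relative lengths of the lists in each class, which the distance rule set, and no lower recurrence of far sites is read from them. With matching within 100 bp neither passed (adjusted Fisher's exact p = 0.238 and 0.270), and against 50 to 500 kb neither 1 peak per nearest gene (0.0696) nor leaving out predicted gene names (0.0783) gave a passing value. The other alternatives passed against 50 to 500 kb, with adjusted Fisher's exact p from 0.00478 (600 kb threshold) to 0.0297 (400 kb threshold). They share the limit that list size sets.

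**Figure D2:**
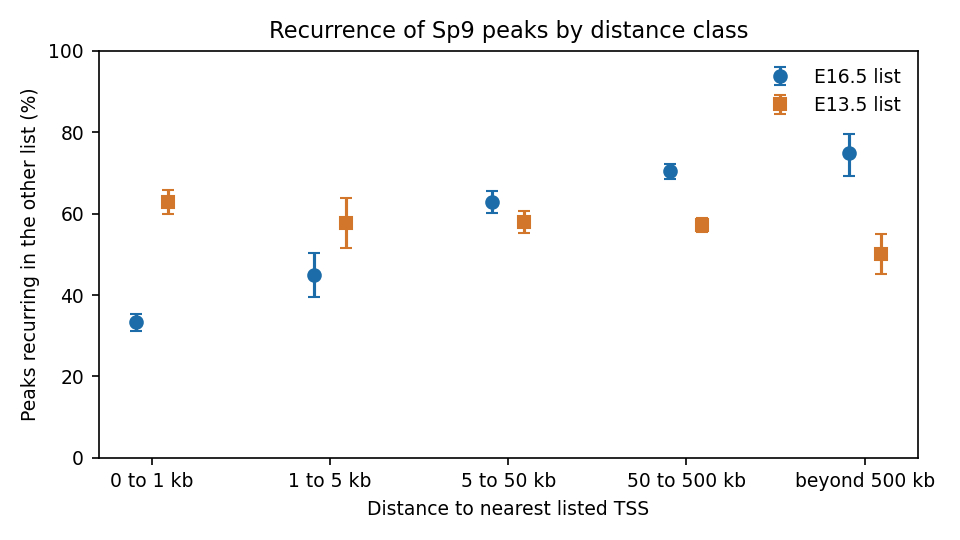
Share of peaks of each list that recur within 200 bp in the other list (vertical axis, percent) by distance to the nearest listed TSS, with 95% Wilson intervals; circles are the E16.5 list and squares the E13.5 list. The E16.5 share is 33.3% within 1 kb and 74.8% beyond 500 kb, while the E13.5 share is 62.9% within 1 kb and 50% beyond 500 kb.

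Peaks with 2 assigned genes recurred in 79 of 103 cases at E16.5 (76.7%) and peaks with 1 in 123 of 167 (73.7%). At E13.5 these were 79 of 150 (52.7%) and 123 of 254 (48.4%). By distance, the recurring share in 100 kb steps ran between 65.7% (23 of 35, 800 to 900 kb) and 80.0% (20 of 25, 900 to 1000 kb) at E16.5. At E13.5 it ran between 41.3% (43 of 104, 600 to 700 kb) and 55.6% (79 of 142, 500 to 600 kb, and 20 of 36, 900 to 1000 kb). In the finer 50 kb steps the E13.5 share was lowest at 650 to 700 kb, with 14 of 47 (29.8%, 18.7 to 44), and highest at 900 to 950 kb, with 12 of 17 (70.6%, 46.9 to 86.7). The next highest was 500 to 550 kb, with 43 of 77 (55.8%, 44.7 to 66.4). The interval of the lowest step overlaps neither of these. The steps were picked out after their values were seen, and no test was made.

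Most peaks that did not recur had no near miss. Of the 68 such peaks at E16.5, 6 had an E13.5 peak of the same gene within 1000 bp and 18 within 50000 bp. Of the 202 at E13.5, 7 had an E16.5 peak within 1000 bp and 44 within 50000 bp. The nearest gene of 4 of the 68 and of 24 of the 202 had no peak at all in the other list.

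Neither the side of the TSS nor the division of peaks passed a test against peaks nearer in. Upstream of the nearest TSS lay 116 of 270 peaks at E16.5 (43.0%, 37.2 to 48.9), against 43.2% of peaks 50 to 500 kb away (odds ratio 0.989, 0.760 to 1.29; adjusted Fisher's exact p = 0.948). At E13.5 these were 169 of 404 (41.8%, 37.1 to 46.7) and 42.5% (odds ratio 0.974, 0.784 to 1.21; adjusted Fisher's exact p = 0.948). Peaks divided by the authors into lettered entries numbered 4 at E16.5 (1.48%) and 5 at E13.5 (1.24%), against 2.34% and 1.79% of peaks 50 to 500 kb away (odds ratios 0.629, 0.164 to 1.72, and 0.686, 0.213 to 1.72; adjusted Fisher's exact p = 0.723 at both stages).

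The nearest genes numbered 182 at E16.5 and 241 at E13.5, of which 156 were in both sets, 26 in the E16.5 set alone and 85 in the E13.5 set alone. Most genes held a single peak beyond 500 kb, 122 of 182 at E16.5 (67.0%) and 146 of 241 at E13.5 (60.6%). Genes with 3 or more numbered 16 at E16.5 and 40 at E13.5, and held 60 of the 270 peaks and 148 of the 404. Within 50 kb of another peak beyond 500 kb of the same gene lay 57 peaks at E16.5 (21.1%, 16.7 to 26.4) and 123 at E13.5 (30.4%, 26.2 to 35.1). A promoter peak, within 1 kb of the gene's own TSS, was present at 23 of the 182 nearest genes at E16.5 (12.6%, 8.57 to 18.2) and at 11 of the 241 at E13.5 (4.56%, 2.57 to 7.99). For genes nearest to a peak 50 to 500 kb away the shares were 13% and 7.77%, and over all listed genes 39% (2128 of 5463) and 23.2% (1121 of 4826). Genes enter the list through a peak at any distance, so the last share includes genes listed only for a promoter peak. No peak at all within 500 kb of their own TSS had 43 of the 182 genes at E16.5 (23.6%) and 52 of the 241 at E13.5 (21.6%).

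The gene nearest to the most peaks beyond 500 kb was Zfp608, which encodes a zinc finger protein, with 7 at E16.5 and 10 at E13.5, forming 6 recurring pairs. Upstream of its TSS, the E16.5 peaks lay at 516924, 532186, 557824, 571340 and 650254 bp. The E13.5 peaks upstream lay at 532149, 557727, 559598, 571335, 648754, 650231 and 675725 bp. All but the first of the E16.5 peaks had an E13.5 partner. Downstream, peaks 535059 and 537070 bp away at E16.5 recurred at 534986 and 537133 bp at E13.5, and a peak 507390 bp away was in the E13.5 list alone. Gramd3 and Csnk1g3, the genes on the far sides of the upstream and downstream stretches, were the nearest genes of further peaks assigned to Zfp608. Counting those, Zfp608 was assigned 10 peaks beyond 500 kb at E16.5 and 14 at E13.5, within 24 and 32 peaks at any distance, the closest of them 1095 and 1026 bp from the TSS.

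Robo1, a receptor for the Slit guidance ligands, was the nearest gene of 4 peaks at E16.5 and 8 at E13.5. At E16.5 they lay 951046 and 759708 bp upstream and 582202 and 787779 bp downstream. At E13.5 they lay 968948 and 951066 bp upstream and 532888, 582201, 647777, 662526, 748840 and 787810 bp downstream. The peaks at 951046, 582202 and 787779 bp were the 3 that recurred, and the other 5 E13.5 peaks had no E16.5 counterpart. The downstream peaks lie between the TSS of Robo1 and that of its paralogue Robo2. Whether they lie inside either gene was not tested. Robo2 was the nearest gene of 1 peak at E16.5, at 774638 bp, and of 3 at E13.5, at 547135, 552132 and 663416 bp, none of them recurring.

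At Slc4a3, Erbb4 and Pcdh7 nearly every far peak recurred, but recurrence helped to choose them. Each had 4 distinct far peaks, as had other genes, and ties went to genes with more recurring pairs. Robo2 and Sel1l, also with 4 distinct peaks, had 0 recurring pairs and were left out of the leading genes. No high recurrence is therefore read from these genes. Slc4a3, an anion exchanger gene, had 4 peaks at each stage and all 4 recurred, at 602799, 884340, 944843 and 975740 bp downstream at E16.5 and 602796, 884369, 944960 and 975832 bp at E13.5. The last of these was also assigned to Epha4, an ephrin receptor gene, from 993082 bp at E16.5 and 992990 bp at E13.5. Slc4a3 had a promoter peak, 10 bp from its TSS, in the E16.5 list, whereas its closest E13.5 peak was 266311 bp away.

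Erbb4, the neuregulin receptor gene, had 3 peaks at E16.5, at 555437, 904172 and 929314 bp downstream. At E13.5 it had 4, at 555423, 676180, 904253 and 929447 bp, so that the one at 676180 bp alone did not recur. Pcdh7, a protocadherin gene, had peaks 518531, 520968, 634443 and 943771 bp upstream at E16.5 and 518514, 634487 and 943705 bp upstream at E13.5. All E13.5 peaks of Pcdh7 beyond 500 kb recurred. At E16.5 Pcdh7 had no peak nearer than 518531 bp, while at E13.5 the closest was 147304 bp away.

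Other leading genes had peaks mostly or only beyond 500 kb. The gene listed as Gm1840 had 5 peaks at each stage and none nearer than 564947 bp at E16.5 and 564950 bp at E13.5. Its peaks at 564947, 710690, 788967 and 808956 bp at E16.5 recurred, the one at 921672 bp did not, and the E13.5 list had one of its own at 584987 bp. Dio2, which encodes the deiodinase that activates thyroid hormone, had peaks 524518, 552929 and 727961 bp downstream at E16.5. At E13.5 the Dio2 peaks lay at 524414, 588331, 605927, 727856 and 728572 bp, and 2 pairs recurred.

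Some genes differed more between the lists. Gm9966 had 1 peak at E16.5, 729373 bp upstream, and 5 at E13.5, at 625634, 688460, 729380, 982401 and 996625 bp, so that 1 pair recurred. Otol1, an inner ear otoconia gene, had 4 at E16.5, at 587367, 631833, 675742 and 974792 bp downstream, and 2 at E13.5, at 587416 and 675523 bp. Its peaks at 675742 and 675523 bp missed the 200 bp limit for recurring. The gene listed as 1700112E06Rik had 5 peaks at E16.5, at 515227, 630155, 660468, 709203 and 725988 bp, and 3 at E13.5, at 630155, 709217 and 726021 bp, all 3 of which recurred.

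**Figure D3:**
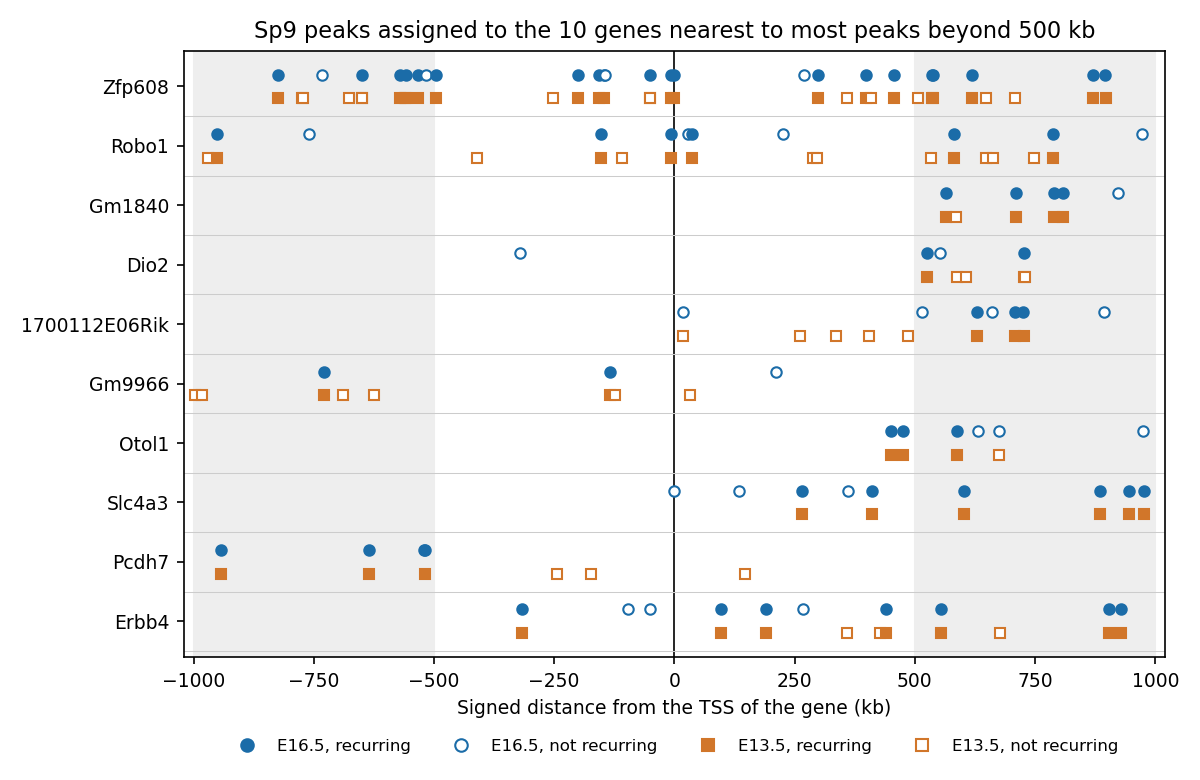
Sp9 peaks assigned to the 10 genes that are nearest to the most peaks beyond 500 kb, by signed distance from the TSS of each gene (horizontal axis, kb; negative is upstream); circles are the E16.5 list, squares the E13.5 list, filled symbols recur within 200 bp, and grey marks distances beyond 500 kb. Slc4a3 has 4 filled symbols per list beyond 500 kb, while Gm9966 has 1 filled symbol per list there and 4 open ones at E13.5.

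The farthest recurring peaks approached the limit of the assignment. The peak 985660 bp upstream of Igfbp7, a secreted growth factor binding protein, at E16.5 recurred at 985687 bp at E13.5. Upstream of Acvr2a, an activin receptor gene, the distances were 979792 bp at E16.5 and 979811 bp at E13.5. Upstream of the neural cell adhesion gene Ncam2 they were 978346 and 978353 bp. After the Slc4a3 peak at 975740 bp came peaks at Mat2b (969132 bp at E16.5, 969116 bp at E13.5) and Nudt12 (964036 and 963966 bp). Of the peaks that did not recur, the farthest at E16.5 were those 987789 bp from the kinesin gene Kif16b, 974792 bp from Otol1 and 955043 bp from Lingo2. At E13.5 they were those 996625 bp from Gm9966, 994739 bp from 9230109A22Rik and 984318 bp from Mms22l.

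The flanking genes were also read against gene lists, counting a gene if it was assigned any peak beyond 500 kb, from the near or the far side. Of all listed genes, 226 of 5463 at E16.5 (4.14%) and 302 of 4826 at E13.5 (6.26%) were assigned one. Far peaks can be assigned only to genes whose TSS lies beside a wide interval, be it a gene-poor stretch or a long gene. A high share in a list can therefore follow from the position or length of its genes, which was not tested. The gene lists were chosen with earlier results of these data known, and no test was made. Genes for cell adhesion and synaptic organisation had 22 of 54 listed genes at E16.5 (40.7%) and 28 of 60 at E13.5 (46.7%). Axon guidance genes had 10 of 24 (41.7%) and 11 of 25 (44%). Neural transcription factors had 13 of 83 (15.7%) and 11 of 85 (12.9%), and ion channels and neurotransmitter receptors 4 of 31 (12.9%) and 6 of 34 (17.6%).

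**Figure D4:**
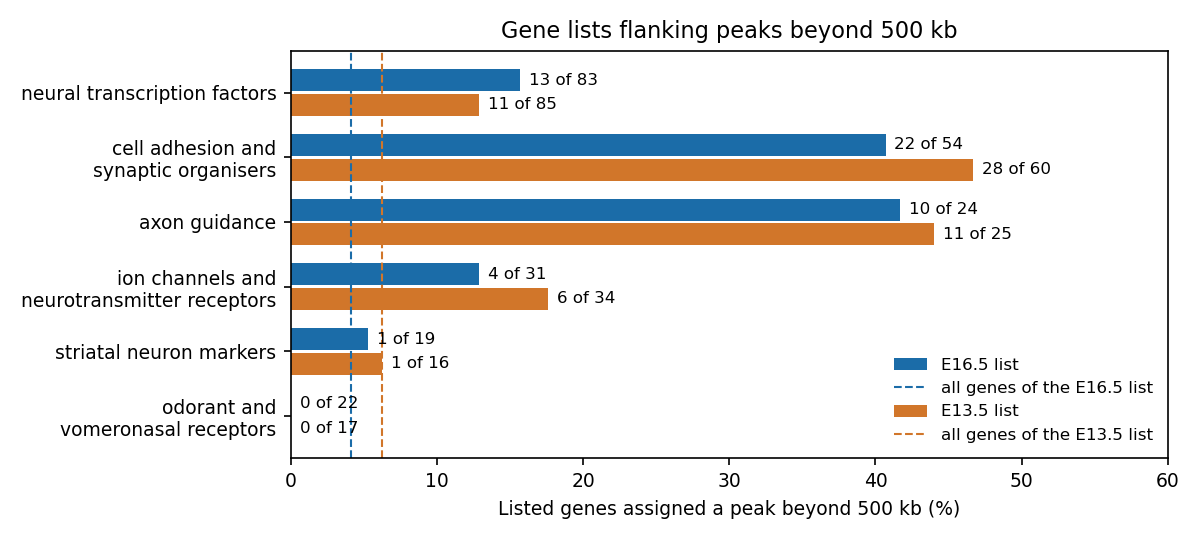
Share of the genes of each list with any peak that were assigned a peak beyond 500 kb (horizontal axis, percent), with counts beside the bars; upper bars are the E16.5 list, lower bars the E13.5 list, and dashed lines the share over all listed genes (4.14% and 6.26%). Lists with under 10 listed genes in either peak list are left out. Adhesion and guidance genes stand between 40.7% and 46.7%, and odorant and vomeronasal receptors at 0.

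Among adhesion genes, 11 of the 30 with a far peak in either list were cadherin or protocadherin genes. The share of these families in the whole adhesion list was not counted, so no preference is read from this number. Cdh8 had peaks 733768 and 843377 bp downstream at E16.5 and 502747, 733670 and 798367 bp downstream at E13.5, with 1 recurring pair. Cdh18 had peaks 884178 and 946368 bp upstream at E16.5 and 553527, 693786 and 884189 bp upstream at E13.5, again with 1 pair. Ntm, which encodes the adhesion protein neurotrimin, had peaks 677758, 715176 and 751231 bp downstream at E16.5, all of which recurred, at 677846, 715190 and 751239 bp at E13.5, where a further peak lay at 645312 bp.

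Nxph1, which encodes a secreted ligand of neurexins, had peaks 671327 and 787719 bp downstream at E16.5. Both recurred, at 671355 and 787711 bp, and the E13.5 list added peaks at 749279 and 886673 bp. Cadm2, a synaptic adhesion gene, had peaks 651092 and 753066 bp downstream at E16.5, both of which recurred at 651046 and 752942 bp, and another at 767011 bp at E13.5. At Ntm, Nxph1 and Cadm2 every E16.5 peak beyond 500 kb thus had an E13.5 partner. Over the whole adhesion list, 28 of 38 far peaks recurred at E16.5 and 28 of 54 at E13.5. Of all far peaks these were 202 of 270 and 202 of 404, so no trait of adhesion genes is read from the named ones.

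Among the guidance genes besides Robo1 and Robo2, the netrin receptor gene Dcc was assigned 3 far peaks at E16.5 and 5 at E13.5. Those 656523 and 709052 bp upstream at E16.5 recurred at 656485 and 709073 bp, and were nearer to Mex3c. A peak 805641 bp downstream of Dcc at E16.5 and one at 804878 bp at E13.5 did not count as recurring. Unc5d, another netrin receptor gene, was assigned peaks 934701 and 966814 bp downstream at E16.5 and 934709 and 966798 bp at E13.5, all nearer to Poteg, and 1 more at 786864 bp at E13.5. Epha4 had a peak of its own at 877566 bp at E16.5 and 877567 bp at E13.5. Epha7 had one 862641 bp upstream at E16.5 that recurred at 862837 bp, and one 978805 bp downstream at E13.5 alone.

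Among the transcription factor genes, the POU factor gene Pou3f4 was assigned 3 peaks at each stage, all recurring, at 736521, 844336 and 969027 bp upstream at E16.5 and 736459, 844311 and 969116 bp at E13.5. Its relative Pou3f3 was assigned peaks 799945 and 947670 bp upstream at E16.5, which recurred at 799921 and 947658 bp, and another at 870917 bp at E13.5. Tle4, a Groucho corepressor gene, was assigned peaks 632619 and 742685 bp upstream at E16.5 that recurred at 632596 and 742701 bp, and one at 751559 bp at E13.5 alone. Bcl11a, a zinc finger gene, had 3 peaks at E16.5, at 661940, 681330 and 751782 bp downstream, and 1 at E13.5, at 751632 bp. The peaks at 751782 and 751632 bp were the recurring pair. Sall3, a spalt-like zinc finger gene, was assigned peaks 597425 and 603465 bp upstream at E16.5 and 523410, 603445 and 828639 bp upstream at E13.5, with those at 603465 and 603445 bp recurring. Several of these peaks, with any recurring partner, were nearer to another gene. They were those of Pou3f4 at 844336 and 969027 bp (Gm6377) and of Pou3f3 at 947670 bp (Tmem182). The same held for Tle4 at 742685 and 751559 bp (Psat1) and Sall3 at 828639 bp (Galr1).

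Far peaks at channel and receptor genes were few in number, 4 at E16.5 and 8 at E13.5. The share of these genes with one, 12.9% and 17.6%, was nonetheless above the 4.14% and 6.26% of all listed genes. Grik2, a kainate receptor gene, had one at 910787 bp at E16.5 that recurred at 910815 bp, and another at 657302 bp at E13.5. Grin2a (640143 bp) and Grm7 (705862 bp) were assigned a far peak at E16.5 alone, and the potassium channel gene Kcna4 (634660 and 645383 bp) at E13.5 alone. The Grin2a peak was nearer to 1810013L24Rik.

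Of the striatal neuron markers, 1 of 19 listed genes at E16.5 (5.26%) and 1 of 16 at E13.5 (6.25%) were assigned a far peak, too few to compare with the 4.14% and 6.26% of all listed genes. The gene was Isl1, a LIM homeodomain factor of direct pathway neurons, from 656531 bp at E16.5 and 656823 bp at E13.5. Both peaks were nearer to Itga1 and missed the 200 bp limit for recurring. Of other cell types, the endothelial cadherin gene Cdh5 was assigned 1 peak, 653345 bp upstream at E16.5 and nearer to Gm8730. Only 4 genes of the endothelium, microglia and blood list had any peak in each list. No gene of the oligodendrocyte list (2 listed at E16.5, 3 at E13.5) or the liver and heart muscle list (3 and 1) was assigned a far peak. Neither was any of the 22 odorant and vomeronasal receptor genes listed at E16.5 or the 17 at E13.5.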

How the data were processed

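What the authors deposited is text, in no standard unit: each row holds a gene, its peaks by number and, on mm9, their signed distances from the TSS, per the file headers. The same headers give the assignment rule, a regulatory domain of 5000 bp before and 1000 bp after the TSS that could grow to 1000000 bp, or a curated one. Tools named in the submitters' processing notes are MACS2 2.1.0 and BWA 0.6.2, besides CASAVA 1.8.2 and bcl2fastq 1.8.4; settings and the peak threshold are not given in the sources used here.

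Letters after a peak number were ignored and each number counted once. The nearest gene was that with the smallest absolute distance. Members and gene lists were chosen with earlier results of these data known. Tests were Fisher's exact, two-sided, adjusted by Benjamini-Hochberg over 8 tests with a threshold of 0.05. Named genes were the 10 nearest to the most distinct peaks, the 6 farthest recurring and 3 farthest other peaks per list, peaks at the threshold, and up to 6 genes per list. Ties among the 10 went to more recurring pairs, then to the farther peak. Robo2 stands also beside Robo1, and Gramd3, Csnk1g3 and other flanking genes were named for their position. Of the genes assigned a far peak, 203 of 226 at E16.5 and 267 of 302 at E13.5 matched the RefSeq table (GRCm38.p6, used for names and neighbours only) by symbol, and 14 and 22 by synonym. Some genes that the naming rule picked are not reported here. The matching was tested on simulated data. Alternatives were other matching limits and thresholds, the nearest gene only, 1 peak per gene, lettered entries counted, and leaving out predicted names or Zfp608. Tests ran in scipy 1.17.1 and numpy 2.4.6 under Python 3.11.15, and figures in matplotlib 3.10.9.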

Additional observations from a re-analysis of the deposited data

Results flagged for a closer look

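Recurrence of peaks beyond 500 kb relative to peaks 50 to 500 kb away had opposite signs in the lists, with a difference of 4.33 percentage points at E16.5 and of -7.19 at E13.5. The difference between the stages was not tested: each stage has 1 library, and the recurring peaks of both lists are the same 202 pairs. With one shared set of pairs, the shares follow from how many peaks each list holds in a class, 270 and 404 beyond 500 kb and 2355 and 2899 at 50 to 500 kb at E16.5 and E13.5, so the change of sign is no separate finding about the stages.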

How the results depend on the processing

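At E13.5 the lower recurrence beyond 500 kb than at 50 to 500 kb kept its sign but not its call with matching within 100 bp (-4.56 percentage points), with 1 peak per nearest gene (-7.79) and without predicted gene names (-6.18). Against all nearer peaks it lost its call with matching within 100 bp (-3.94). The cause was not tested. With the other alternatives both comparisons kept their call, under the same limit from list size. The difference in upstream share, which did not pass its test, changed sign with a threshold of 400 kb (3 points at E16.5, 4.27 at E13.5), with 1 peak per nearest gene (3.34 and 5.15) and without predicted names (3.64 and 0.505). By construction the number of peaks moved with the threshold: 431 (7.16%) beyond 400 kb and 169 (2.81%) beyond 600 kb at E16.5, and 606 (10.4%) and 262 (4.48%) at E13.5. Leaving out Zfp608 was chosen after seeing the data, was run for the 4 recurrence tests alone and changed none of those calls. No paired analysis was possible because each stage has 1 ChIP library. Without read totals, effects of depth on the number of far peaks could not be assessed.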
